A study of Homo sapiens with 19 samples.

Results

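The nuclear-encoded respiratory chain genes are the genes of the cell nucleus whose proteins build the 5 complexes of oxidative phosphorylation. They were chosen by symbol alone, as protein-coding genes whose GENCODE name begins with NDUFA, NDUFB, NDUFC, NDUFS, NDUFV, UQCR, COX4, COX5, COX6, COX7, COX8 or ATP5, or is SDHA, SDHB, SDHC, SDHD or CYC1. The rule found 100 genes, beside 17125 protein-coding genes with at least 1 read. Of the 100, 45 belong to complex I, 4 to complex II, 9 to complex III, 19 to complex IV and 19 to complex V, and 4 are readthrough or copy genes (ATP5MF-PTCD1, NDUFC2-KCTD14, ATP5MGL and UQCRHL). The prefix NDUFA also takes in 8 NDUFAF genes, which encode assembly factors of complex I rather than subunits of it.

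Complexes I to IV pass electrons from NADH and succinate to oxygen and, except for complex II, pump protons across the inner mitochondrial membrane, and complex V uses the resulting gradient to make ATP. Complexes I, III, IV and V also hold subunits encoded in mitochondrial DNA, so their assembly needs the products of both genomes, and the nuclear-encoded subunits are made in the cytosol and imported. Several complex IV subunits exist as pairs of genes, one expressed widely and one in heart and skeletal muscle, lung or testis. Stem cells are known for a greater reliance on glycolysis than differentiated cells, while they keep a working respiratory chain.

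The series counted reads over splice junctions in 19 libraries of RNA depleted of ribosomal RNA. A375, a melanoma line, gave a total RNA library titled WT (wild type). Fractions of A375 prepared with a low-salt, detergent lysis gave 1 nuclear and 1 cytoplasmic library. HEK293, a line from embryonic kidney, and HUES66, a line of embryonic stem cells, gave 1 library of total RNA each, both titled WT. The other 14 libraries came from HUES66 cells given doxycycline at 1 μg per ml, as 3 control libraries of genotype WT (24 hr replicate 2, 48 hr and 96 hr), 3 of total knockdown of RBFOX2 (24 hr replicate 1, 48 hr and 96 hr), 4 of N-short knockdown and 4 of N-long knockdown (both 24 hr replicates, 48 hr and 96 hr). RBFOX2 is a splicing factor that binds GCATG-like sequences in RNA, and the title names Cas13d, a nuclease that cuts RNA where a guide RNA pairs with it. N-short and N-long are labelled as knockdowns of RBFOX2 isoforms. The labels do not say whether libraries of a group came from separate cultures or clones, so the p-values measure the spread between these libraries only.

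The libraries held 6499183 to 27937149 junction reads, of which 96.3% to 97.9% were assigned to a gene. RBFOX2 stood at 122 to 130 CPM (reads scaled to a library total of 1000000, here with normalisation factors) in the 3 controls, at 49.3 to 79.4 in total knockdown, at 75.2 to 87.7 in N-long knockdown and at 111 to 120 in N-short knockdown. All 8 stem cell markers had reads in wild-type HUES66, with a summed level of 3267 CPM against 9.87 in A375 and 47.4 in HEK293. Of 8 melanoma markers, 6 had reads in A375 (909 CPM in sum), while MLANA and TYR had none. In wild-type HUES66 6 had reads as well (85.4 CPM), and in HEK293 4 (11.35 CPM). Of 6 kidney and neurofilament markers used for HEK293, 5 had reads there (63.4 CPM) and PAX8 had none. In wild-type HUES66 5 of them also had reads (9.74 CPM), and in A375 4 (31.6 CPM), so these markers set HEK293 apart less clearly. Libraries of 1 time point and replicate resembled each other: after removal of the knockdown means, the residuals of the 18 library pairs within a set had a median correlation of 0.57, and those of the 55 pairs across sets with different knockdowns one of -0.19.

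Respiratory chain transcripts took 1.05% to 1.12% of all junction reads in each of the 15 HUES66 libraries, 1.06% in A375 total RNA and 1.11% in HEK293. Levels between genes were compared as CPM per intron of the reference transcript, so that genes with many introns do not count more. On this scale the median over 98 members with an annotated intron was 20.7 in wild-type HUES66. It was 1.36 over 16894 protein-coding genes with a read in any library, many of them low or silent in HUES66. Over the 9205 of these at 1 CPM per intron or more it was 4.30. The member medians were 19.9 in A375 and 24.0 in HEK293.

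The complexes stood at different levels. In wild-type HUES66 the 11 widely expressed subunits of complex IV had a median of 44.8 CPM per intron, and the 5 subunits of F1, the catalytic head of complex V, had 76.3. The 12 membrane and stalk subunits of complex V had a median of 40.5, the 9 subunits of complex III 20.6, and the 4 of complex II 11.8. Within complex I, the 30 accessory subunits had a median of 22.3, the 7 core subunits, which carry the redox centres, 11.9, and the 8 assembly factors 3.51. The order of F1, complex IV, accessory subunits and assembly factors was the same in A375 (60.5, 48.3, 22.6 and 5.46) and in HEK293 (66.0, 48.6, 24.4 and 5.11). Other groups changed places. Complex II, just below the core subunits of complex I in HUES66, stood above them in A375 (16.45 against 10.1) and in HEK293 (16.9 against 11.2). Complex III, below the accessory subunits in HUES66, stood slightly above them in HEK293 (24.8 against 24.4).

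**Figure D1:**
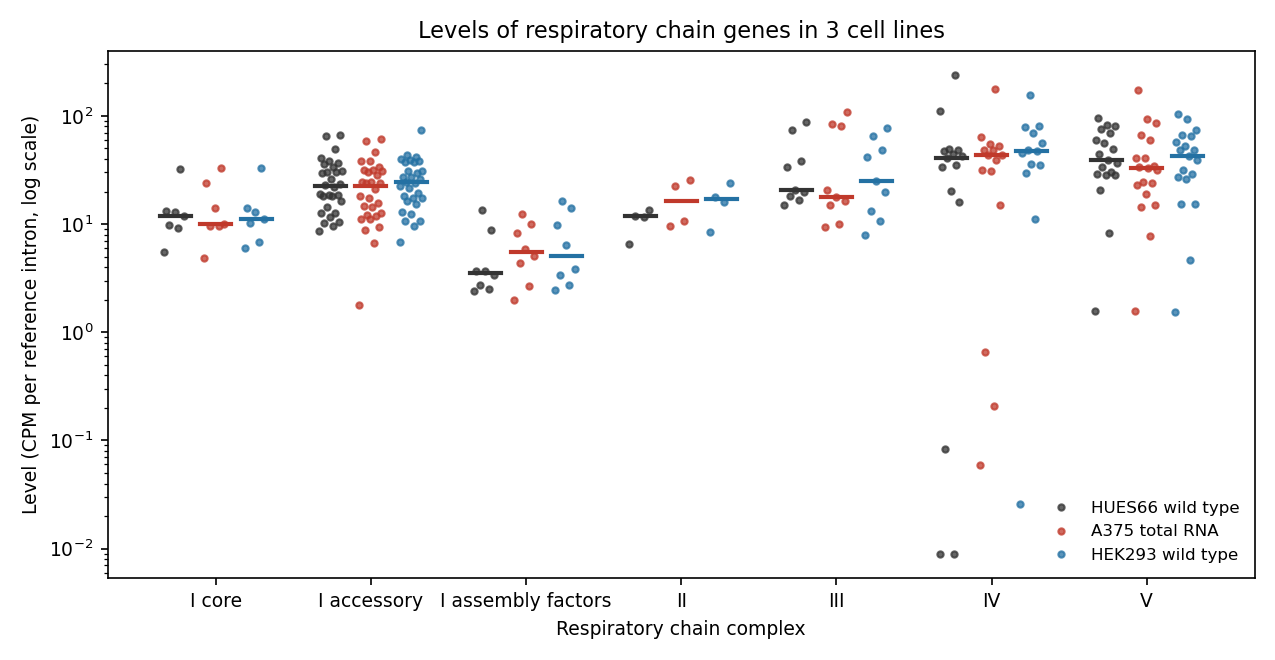
Level of each respiratory chain gene with a read (points) in 1 library of each line, as CPM per intron of the reference transcript on a log axis, with the median of each group as a bar. The medians of complexes IV and V lie highest in every line, a few tissue isoforms of complex IV fall far below the rest, and the assembly factors have the lowest median.

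COX7C, a small subunit of complex IV, had the highest level per intron of all members, at 240 in wild-type HUES66, 231 to 287 in the 14 treated HUES66 libraries, 176 in A375 and 156 in HEK293. NDUFA4, first assigned to complex I and now placed in complex IV, followed at 111 in wild-type HUES66. ATP5F1B, the catalytic beta subunit, stood at 96.6 and UQCRH, the hinge protein of complex III, at 88.6. The ranges of NDUFA4 (94.4 to 114) and ATP5F1B (88.6 to 102) over the 14 treated libraries overlapped, as did those of ATP5F1B and UQCRH (76.4 to 94.0), while COX7C lay above all of them.

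Of the paired isoforms, the widely expressed gene carried almost all reads in every line. COX4I1, the regulatory subunit that binds early in complex IV assembly, stood at 49.4 CPM per intron in wild-type HUES66, 63.8 in A375 and 55.7 in HEK293, while its lung isoform COX4I2 had no read in those 3 libraries and at most 3 in any library. COX6A1 stood at 20.4, 31.6 and 29.6 in the same order, and its muscle isoform COX6A2 had at most 1 read in any library. COX7A2 stood at 47.6, 53.1 and 79.3. COX7A1, its muscle isoform, had 7 reads in wild-type HUES66, 1 to 12 reads in each treated HUES66 library, and none in A375 or HEK293. COX8A stood at 40.98, 43.3 and 35.7, and COX8C, known from testis, had at most 1 read in any library.

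The testis isoforms COX6B2 and COX7B2 were also near 0. COX6B2 had 0 to 10 reads per library, against 35.0 to 68.8 CPM per intron for COX6B1 in the 3 lines. COX7B2 had 11 reads in the A375 total library, 6 in the nuclear library and 24 in the cytoplasmic library, and at most 2 in any other, against 42.6 to 79.9 CPM per intron for COX7B in HUES66 and HEK293 and 48.3 in A375. NDUFA4L2, a relative of NDUFA4 known to rise in low oxygen, had 7 reads in A375 total RNA, 63 in its cytoplasmic library and 0 to 6 in each HUES66 library. A read count this low fixes no fold between lines, and a library without a read allows up to 3.

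Complex V needs a ring of c subunits, and 3 genes, ATP5MC1, ATP5MC2 and ATP5MC3, encode the same mature c subunit with different import sequences. ATP5MC3 was highest in every line, at 60.2 CPM per intron in wild-type HUES66, 34.4 in A375 and 48.8 in HEK293. ATP5MC2 stood at 28.3, 24.4 and 15.2, and ATP5MC1 at 20.8, 18.9 and 15.2, so that the latter pair differed little in HEK293. ATP5IF1, the inhibitor protein of complex V, stood at 39.5, 23.8 and 27.3. The readthrough genes had next to no reads of their own, and ATP5MGL and UQCRHL have no annotated intron, so junction reads cannot measure them.

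Start regions of these genes are known to bind NRF1, GABP of the ETS family, YY1 and the estrogen-related receptors. RefSeq (GRCh38.p14) promoters, from 250 bases before to 50 after the start, were present for 76 of the 100 members, as 94 entries. The NRF1 motif, with 1 base left free, was found, on either strand, in 18.1% of member promoters against 7.39% of 21021 promoters of protein-coding genes, the ETS motif CCGGAAG in 25.5% against 12.9%, the YY1 motif AAGATGG in 22.3% against 6.09%, and the estrogen-related receptor motif AAGGTCA in 11.7% against 3.18%. At least 1 of these 4 was in 54.3% of member promoters and 25.9% of all. The GC box GGGCGG (60.6% against 57.0%), the CCAAT box CCAAT (36.2% against 34.7%) and the TATA box TATAAA (7.45% against 9.26%) stood at like shares. Another 4 spellings were searched: the NRF1 motif with that base fixed was in 5.32% of member promoters and 1.49% of all, ACTTCCGG in 11.7% and 5.42%, CCAAGATGG in 3.19% and 0.989%, and TGACGTCA, the CREB site, in 5.32% and 2.24%. ACTTCCGG overlaps the reverse strand of the ETS motif and CCAAGATGG holds the YY1 motif. A match is a stretch of letters and not a measured binding site.

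The 90 bases before the start are shown for 5 members that the results below turn on, and for COX7C, the most abundant. All of those shown hold a motif in this stretch, which is not so for every member named below. NDUFB10, ATP5PB, UQCR10, NDUFA6 and each entry of NDUFAF3 hold no NRF1, ETS, YY1 or estrogen-related receptor motif there. Capitals mark the motif named beside each gene, on either strand. COX5B lies at chr2:97645972-97646061 (+), NDUFA9 at chr12:4649024-4649113 (+), UQCRQ at chr5:132866552-132866641 (+), UQCRFS1 at chr19:29213152-29213241 (-), ATP5PO at chr21:33915805-33915894 (-) and COX7C at chr5:86617851-86617940 (+).
COX5B, ETS: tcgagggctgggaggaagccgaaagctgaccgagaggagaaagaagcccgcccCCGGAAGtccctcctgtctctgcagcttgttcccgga
NDUFA9, NRF1: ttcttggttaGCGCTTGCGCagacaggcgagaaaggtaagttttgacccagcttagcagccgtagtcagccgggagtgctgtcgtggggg
UQCRQ, ETS: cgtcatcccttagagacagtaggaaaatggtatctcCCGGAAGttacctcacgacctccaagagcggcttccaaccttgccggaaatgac
UQCRFS1, NRF1: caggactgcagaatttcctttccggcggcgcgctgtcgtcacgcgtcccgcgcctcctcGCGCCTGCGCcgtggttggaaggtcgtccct
ATP5PO, NRF1: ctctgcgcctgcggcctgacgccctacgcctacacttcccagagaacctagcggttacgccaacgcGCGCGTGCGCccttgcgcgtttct
COX7C, YY1: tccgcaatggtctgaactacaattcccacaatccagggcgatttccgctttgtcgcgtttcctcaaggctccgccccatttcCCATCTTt

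In A375 cells the spliced transcripts of respiratory chain genes were lower in the nuclear than in the cytoplasmic library. A ratio was taken for the 91 members whose nuclear and cytoplasmic reads summed to at least 20. Of these, 83 had a nuclear to cytoplasmic ratio of CPM under 1, where 53.4% of 11998 protein-coding genes did. At least 2-fold lower in the nucleus were 50 members, and 18.6% of the protein-coding genes. The only member at least 2-fold higher in the nucleus was NDUFAF1, against 22.4% of all genes. The median log2 ratio was -1.05 over the members and -0.10 over all genes. There was 1 library per fraction, so these ratios carry no replicate check, and their 95% intervals cover counting error only. Each library was made from the same mass of RNA, so the ratio compares shares of each fraction's spliced RNA and not amounts per cell, and in bulk RNA fewer cells and less RNA per cell cannot be told apart.

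Spliced noncoding RNAs known to stay in the nucleus lay on the other side, with a median log2 ratio of 1.89 over 5 of them. Transcripts of cytosolic ribosomal proteins were 2-fold lower in the nuclear library in 76 of 78 genes, with a median of -1.40, and those of mitochondrial ribosomal proteins in 42 of 77, with a median of -1.12. Other assembly factors of the respiratory complexes, outside the naming rule, had a median of -0.97 and 23 of 47 genes past 2-fold. Genes of the citric acid cycle (median -0.48, 1 of 18 past 2-fold) and of mitochondrial DNA expression (median 0.12, 1 of 18) were closer to the genome as a whole.

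By complex, the median log2 ratio was -1.42 for the 9 genes of complex III, -1.17 for the 19 of complex V, -0.96 for the 45 of complex I and -0.92 for the 14 of complex IV, and 2 of the 4 genes of complex II were past 2-fold. Within complex V the membrane and stalk subunits (-1.26, 10 of 12 past 2-fold) stood lower than the F1 subunits (-0.67, 2 of 5). All 3 catalytic core genes ATP5F1A (ratio 0.691, interval 0.667 to 0.716), ATP5F1B (0.654, 0.634 to 0.675) and ATP5F1C (0.628, 0.588 to 0.670) stayed above 0.5, with 1068 to 4522 nuclear reads each. Core subunits of complex I had a median of -0.73.

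**Figure D2:**
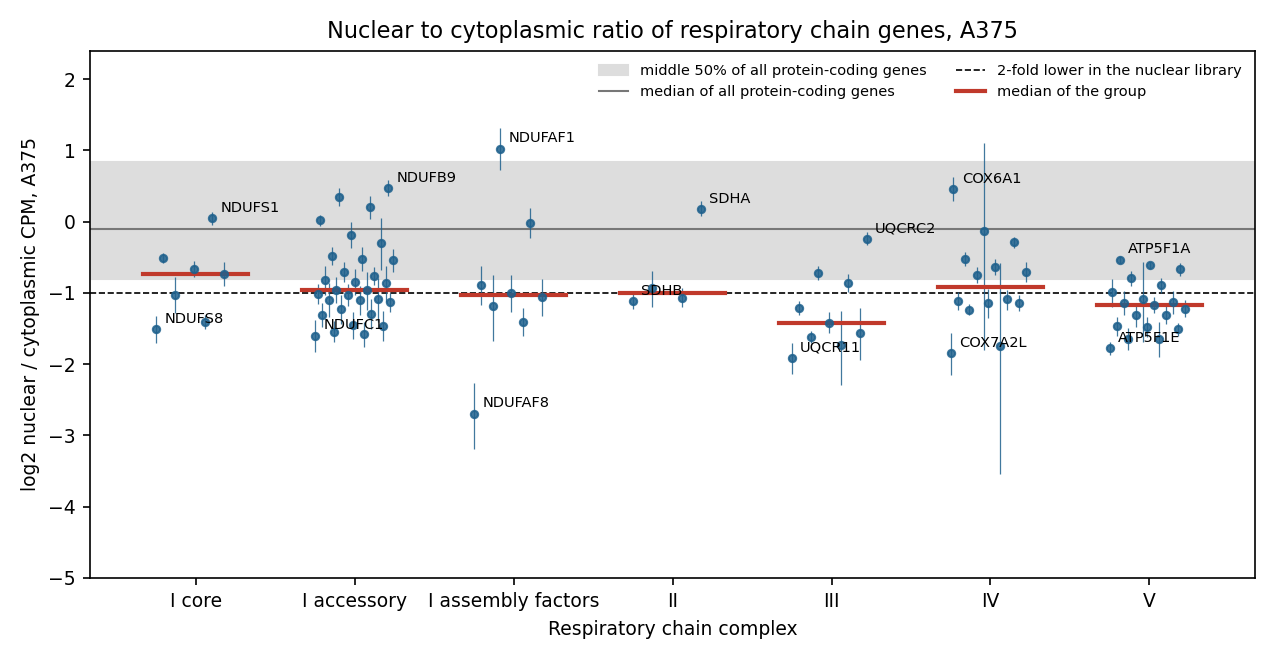
log2 ratio of nuclear to cytoplasmic CPM in A375 for 91 respiratory chain genes (points, with 95% counting intervals), by complex, with the group median in red and the median and quartiles of all protein-coding genes as a grey line and band. Most points lie below the grey line at -0.10, and NDUFAF1, NDUFB9, COX6A1 and SDHA are among the few above it.

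NDUFAF8, an assembly factor of complex I, had the lowest ratio, with 41 nuclear and 922 cytoplasmic reads (6.31 and 41.3 CPM) and a ratio of 0.155 (interval 0.109 to 0.209). UQCR11, a small subunit of complex III, had 28.2 and 106 CPM and a ratio of 0.266. COX7A2L, which helps join complexes III and IV, stood at 0.278, ATP5F1E, the epsilon subunit of F1, at 0.292, and UQCRFS1, the Rieske iron-sulfur protein of complex III, at 0.301. The intervals of UQCR11 (0.227 to 0.308), COX7A2L (0.224 to 0.338), ATP5F1E (0.275 to 0.310) and UQCRFS1 (0.205 to 0.418) overlapped.

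At the other end, NDUFAF1, another assembly factor of complex I, had 149 nuclear and 252 cytoplasmic reads and a ratio of 2.04 (1.65 to 2.50). The accessory subunit NDUFB9 stood at 1.39 (1.29 to 1.50), COX6A1 at 1.37 (1.22 to 1.54), NDUFA9 at 1.27 (1.17 to 1.39) and NDUFC2 at 1.15 (1.03 to 1.29). Complex II was split, with the flavoprotein SDHA at 1.13 (1.05 to 1.22) against 0.463 for SDHB, 0.478 for SDHC and 0.523 for SDHD. SDHA has spliced copies elsewhere in the genome, so its reads are uncertain. Against the A375 total RNA library COX6A1 had a ratio of 0.988 (0.866 to 1.13), and so no direction beyond counting error. NDUFS1, the largest core subunit of complex I, stood at 1.03 (0.968 to 1.10) and, against total RNA, at 0.986, so it had no direction beyond counting error, against 0.632 for NDUFV1, the NADH-binding subunit.

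Gene structure went with these ratios. Over 89 members with at least 100 reads, Spearman's rho of the log2 ratio with the number of introns was 0.45, and with gene length 0.27, beside 0.47 and 0.36 over 10152 protein-coding genes. Members have a median of 3 introns and all these genes a median of 9. The values are across genes of 1 pair of libraries, which share their depth, and the part of gene structure in the low member ratios was not tested. Against the A375 total RNA library in place of the cytoplasmic one, the median log2 ratio of the members was -0.41 and 1 member, NDUFAF8, was 2-fold lower, where 2.97% of all genes were.

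Between lines, few respiratory chain genes differed by 2-fold. Of 89 members with at least 20 reads in both libraries together, 7 were at least 2-fold lower and 4 at least 2-fold higher in A375 than in wild-type HUES66, where 43.6% of 13091 protein-coding genes were past 2-fold in either direction. In HEK293 against wild-type HUES66 the counts were 1 lower and 3 higher, against 38.9% of 12983 genes, and in A375 against HEK293 7 lower and 3 higher, against 37.0% of 12090. Members have higher levels than most genes, and with genes of at least 100 reads only the shares over all genes were 38.8%, 33.5% and 31.6%, with member counts of 11, 4 and 10. The quartiles of member log2 ratios were -0.33 and 0.27 in A375 against HUES66, beside -0.88 and 0.82 over all genes. The median log2 ratios of the members were -0.07, 0.04 and -0.05 in the 3 comparisons. Their signs changed with the scaling or the control library, as given in the closing section, so no direction is read from them.

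The spread of HUES66 gives another yardstick. A375 lay above all 15 HUES66 libraries for 29 members (38.3% of all genes), below them for 30 (39.1% of all genes) and within their range for 30. HEK293 lay above for 42 (41.1% of all genes), below for 23 (34.1%) and within for 24. The member counts are out of 89. Over all genes, A375 lay above the HUES66 libraries for 5010 and below them for 5121 of 13091. HEK293 lay above for 5340 and below for 4433 of 12983, and the rest lay within. A375 and HEK293 were kept in DMEM with serum and HUES66 in StemFlex medium, so line and medium cannot be told apart for HUES66 against the others. The A375 library carries a series tag in its name that no HUES66 library has, while HEK293 shares its tag with 3 HUES66 libraries of 24 hr replicate 2. Against the control among these 3, a comparison added after the data were seen, 4 members were again past 2-fold in HEK293, where 37.7% of all genes were, with a log2 ratio of -1.26 for NDUFA4, 1.02 for SDHB and 1.37 for SDHA.

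In A375 the lowest ratios to wild-type HUES66 were those of ATP5PO and UQCR10. ATP5PO, the stalk subunit that confers sensitivity to oligomycin, stood at 87.1 CPM in A375 and 265 in wild-type HUES66, a ratio of 0.329 (interval 0.304 to 0.355), and at 290 in HEK293. UQCR10, a small subunit of complex III, stood at 12.6, 37.5 and 48.3 CPM in A375, wild-type HUES66 and HEK293, with ratios of 0.338 to HUES66 and 0.262 to HEK293. NDUFA6 (0.397), NDUFV3 (0.463) and the assembly factor NDUFAF4 (0.472) followed against HUES66, and NDUFAF4 (0.381), UQCRFS1 (0.477) and NDUFB3 (0.481) against HEK293. All 5 members lowest against HUES66 lay below every one of the 15 HUES66 libraries.

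NDUFAF3, an assembly factor of complex I, had the highest ratio in A375, with 49.9 CPM against 13.5 in wild-type HUES66 and 25.7 in HEK293, a ratio of 3.71 (3.22 to 4.28) to HUES66. UQCRQ (2.24), ATP5F1E (2.16), SDHB (2.16) and NDUFAF8 (1.88) followed. Against HEK293, high ratios were those of CYC1 (2.26), NDUFB9 (2.06), NDUFAF3 (1.94) and ATP5F1E (1.68). ATP5PO and ATP5F1E, subunits of the same complex, thus differed from HUES66 in opposite directions in A375.

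In HEK293 the lowest ratio to wild-type HUES66 was that of NDUFA4, at 136 against 333 CPM and a ratio of 0.408 (0.385 to 0.433). It was also at 165 CPM in A375, so HUES66 was the highest of the 3 lines. ATP5ME (0.517), CYC1 (0.522), ATP5MC2 (0.537) and UQCRC1 (0.542) followed. SDHA was the highest at 2.77 (2.62 to 2.92), with the doubt about its copies given above, followed by NDUFAF8 (2.17), SDHB (2.01), COX6B1 (1.96) and NDUFA1 (1.94). Among the genes of complex II, SDHA, SDHB and SDHC stood above the HUES66 range in both lines. SDHD did so in neither, with log2 ratios of -0.13 in A375 and -0.46 in HEK293.

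**Figure D3:**
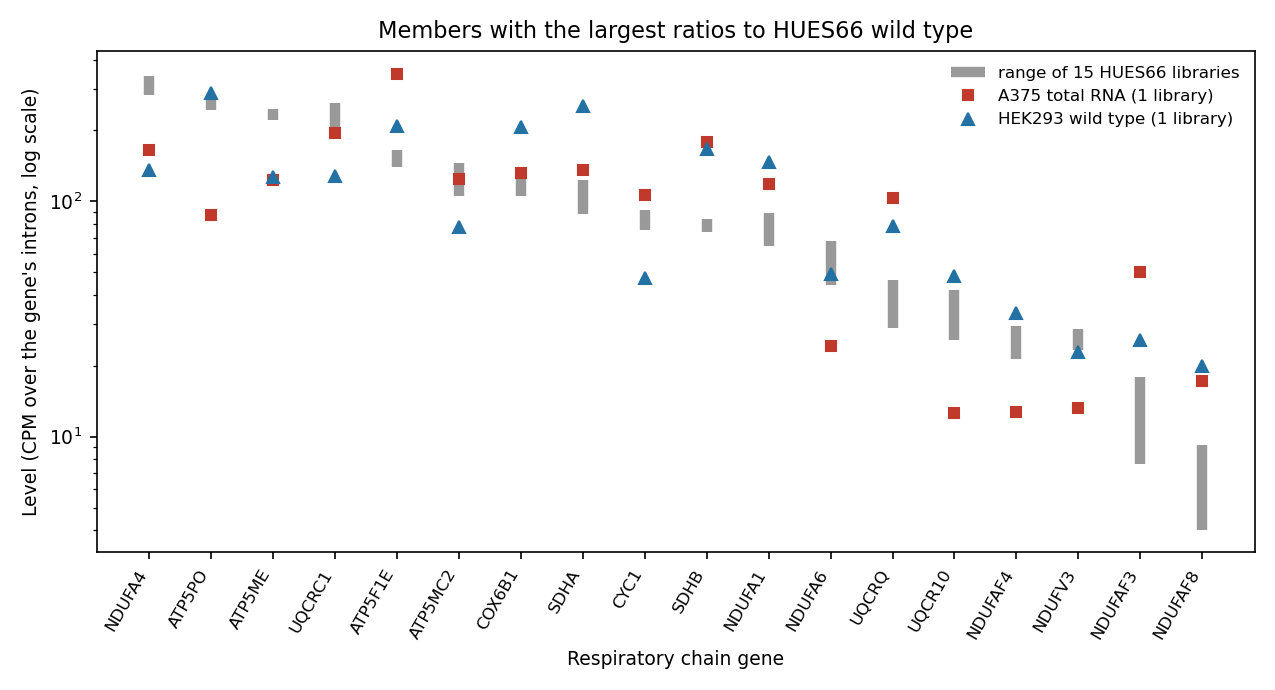
Levels in CPM (log axis) of the members with the 5 largest ratios to wild-type HUES66 in each direction for A375 (red squares) or HEK293 (blue triangles), with the range of the 15 HUES66 libraries as grey bars. ATP5PO, UQCR10 and NDUFA6 lie below the HUES66 bar in A375 alone, NDUFA4 and ATP5ME in both lines, and NDUFAF3, NDUFAF8 and SDHB lie above it in both.

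In each knockdown contrast, 1 respiratory chain gene at most was called as changed in level. Of the 90 members that passed the filter on low counts, COX5B alone was called under total knockdown, upward. Over all 13588 genes tested, 2.36% were called by edgeR's quasi-likelihood test at an adjusted p under 0.05. The lack of a call for the other members does not show that their levels were alike between groups. COX5B, a zinc-binding subunit of complex IV, stood at 85.02, 81.3 and 87.1 normalised CPM in the controls at 24, 48 and 96 hr. In total knockdown it stood at 105, 91.9 and 102. The N-short (92.3) and N-long (98.4) libraries of 24 hr replicate 1, the replicate of the 24 hr total knockdown library, also lay above every control. At 24 hr the control came from replicate 2 and total knockdown from replicate 1, which the fit links through the N-short and N-long libraries of both. The log2 fold change of COX5B was 0.20 (SE 0.053, n = 3 against 3 in the fit of 14 libraries, edgeR adjusted p = 0.0306). N-short knockdown held 82.1 to 93.8 CPM and N-long knockdown 85.1 to 98.4, both overlapping the other groups. The count of all genes called under total knockdown, 320, fell to 168 when the control at 96 hr was left out, to 200 when that at 48 hr was, and to 193 when the 48 hr library of total knockdown was. The call of COX5B was lost with DESeq2, with time in place of library set in the fit, with the wild-type library among the controls, and in 8 of 14 fits that left out 1 library, where the adjusted p ran from 0.0168 to 0.189.

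At an unadjusted p under 0.05 there were 9 members under total knockdown (10% of the 90, against 13.2% of all genes). The members next in order of p under total knockdown were ATP5PD, a stalk subunit, with a log2 fold change of 0.11 (edgeR adjusted p = 0.209), and NDUFB9, with 0.13 (adjusted p = 0.213). Under N-short knockdown edgeR called 0 of 90 members, 1 had an unadjusted p under 0.05 (1.11%, against 4.11% of all genes), and 0.0147% of all genes were called. The 3 smallest p there were those of UQCRH (log2 fold change -0.08), NDUFAF3 (-0.20) and ATP5MC1 (0.09), each at an adjusted p of 0.998. Under N-long knockdown edgeR called 0 members, 3 had an unadjusted p under 0.05 (3.33%, against 4.47% of all genes), and 0.0221% of all genes were called. ATP5MC1 (0.15, adjusted p = 0.971), ATP5F1E (0.11, adjusted p = 1) and COX5B (0.10, adjusted p = 1) came first.

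Directly compared, N-long and N-short knockdown differed in 0 members by edgeR, with 7 at an unadjusted p under 0.05 (7.78%, against 5.15% of all genes) and 0.0147% of all genes called. COX7C (0.08, adjusted p = 0.798), NDUFA4 (0.08, adjusted p = 0.901) and ATP5F1E (0.08, adjusted p = 0.907) had the smallest p, all higher in N-long knockdown. Total against N-long knockdown also called 0 members, with 8 at an unadjusted p under 0.05 (8.89%, against 11.8% of all genes) and 2.11% of all genes called. There, NDUFA4 (-0.11, adjusted p = 0.102) and UQCRC2 (-0.09, adjusted p = 0.238) came first. DESeq2 likewise called 0 members in these 4 contrasts. The member fold changes were small throughout: under total knockdown they ran from -0.13 (UQCRFS1) to 0.20, with a median of 0.02 beside 0.00 over all genes.

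Few genes of the neighbouring lists passed. Under total knockdown no gene passed among 46 other assembly factors, 17 electron carrier and ubiquinone genes, 18 of the citric acid cycle, 18 of mitochondrial DNA expression, 13 transcription regulators of respiratory genes and 77 mitochondrial ribosomal proteins, and 1 of 78 cytosolic ribosomal protein genes did. N-short and N-long knockdown called none in any of these lists. Over the 14 treated libraries, 87 members at 10 CPM or more had a median coefficient of variation of 7.80%, against 11% over 8454 genes. Among members it ran from 3.09% for ATP5PO to 20.4% for NDUFA9. Members have higher levels than most genes, and the sets were not matched for level.

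One splice event of a member did stand out, in ATP5F1C, which encodes the gamma subunit, the shaft that turns inside F1. Its last cassette exon, of 37 nt, is known to be skipped in heart and skeletal muscle, and proteins of the RBFOX family are known to act on it. The exon lies at chr10:7806974-7807010 (hg38, + strand) and holds the stop codon of the included form. Spliced in, the reading frame runs through 4 coding bases of the exon and then its TAA. Spliced out, 1 coding base of the next exon stands before the TAA, so the proteins differ by a single residue at the end. Both forms are shown from 24 bases before the junction to the stop codon, in capitals after the junction.
ATP5F1C exon included: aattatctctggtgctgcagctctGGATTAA
ATP5F1C exon skipped: aattatctctggtgctgcagctctGTAA

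Reads that skipped the ATP5F1C exon were rare in HUES66 and fewest in total and N-long knockdown. The controls had 8 of 681 reads skipping at 24 hr replicate 2 (1.17%), 40 of 683 at 48 hr (5.86%) and 9 of 792 at 96 hr (1.14%). Total knockdown had 3 of 865 (0.347%), 9 of 803 (1.12%) and 2 of 678 (0.295%) at 24, 48 and 96 hr. N-long knockdown had 3 of 875 (0.343%), 5 of 716 (0.698%), 5 of 858 (0.583%) and 3 of 783 (0.383%) in 24 hr replicates 1 and 2, 48 hr and 96 hr. N-short knockdown had 6 of 877 (0.684%), 10 of 606 (1.65%), 29 of 776 (3.74%) and 6 of 712 (0.843%). Within each set of time and 24 hr replicate, the total and N-long libraries lay below the control and N-short libraries of that set, and the 48 hr control and N-short libraries were the highest 2 of the 14. In groups, N-long knockdown (0.343% to 0.698%) lay below all controls. Total knockdown (0.295% to 1.12%) came up to just under the lowest control (1.14%). The 48 hr total knockdown library and the 96 hr control had 9 skipping reads each, of 803 and 792, so these groups were not clearly apart.

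The exon was too rarely skipped for the filter used for testing, which kept exons with 2% to 98% inclusion over the 14 libraries. With the filter widened to 1% to 99%, a choice made after the counts were seen, edgeR tested 8806 exons, 52 of them in members. The log2 odds of inclusion were 2.10 higher in total knockdown than in controls (SE 0.38, edgeR adjusted p = 6.54e-05), where 1.06% of exons were called, and 2.26 higher in N-long knockdown (SE 0.36, edgeR adjusted p = 4.01e-06), where 0.477% were. The difference between N-long and N-short knockdown was 1.80 (SE 0.36, edgeR adjusted p = 0.00136, 0.352% of exons called). N-short knockdown against control gave 0.46 (SE 0.28, edgeR adjusted p = 1, 0.0114% of exons called), and total against N-long knockdown gave -0.16 (SE 0.50, edgeR adjusted p = 1).

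These calls rest on the 48 hr libraries. Without the 48 hr control the adjusted p was 0.600 for total and 0.462 for N-long knockdown. Without the 48 hr library of total knockdown it was 0.429 for total, and without that of N-long knockdown it was 0.410 for N-long against control and 1 for N-long against N-short. The latter was 0.142 without the 48 hr library of N-short knockdown. Tested with limma on log2 ratios, the adjusted p was 0.587, 0.737 and 0.784 for total, N-long and N-long against N-short. At 48 hr, 6 muscle markers summed to 44.8 CPM in the control, 44.2 in total, 42.9 in N-short and 41.8 in N-long knockdown. The other treated libraries held 13.2 to 26.7 CPM. In each 48 hr library only 3 of the 6 markers reached 1 CPM, and MYL2 had no read in any of them. The muscle sum was alike across the 4 groups at 48 hr, and its part in the higher skipping of 2 of these groups was not tested.

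The authors' deposited table for total knockdown at 48 hr gave a difference in inclusion, control minus knockdown, of -0.051 (adjusted p = 0.00142), and the authors' deposited table for N-long knockdown at 48 hr gave -0.057 (adjusted p = 5.77e-05). In the authors' deposited tables for N-short knockdown, and for all knockdowns at 24 and 96 hr, the adjusted p of this exon was 0.912 to 1. Under total knockdown, 0.125% of all events passed at 48 hr and 0.0903% at 96 hr. Under N-long knockdown, 0.0105%, 0.0288% and 0.0211% passed at 24, 48 and 96 hr, and under N-short knockdown 0.0124%, 0.00444% and 0.00218%. The only other member event that passed in the authors' deposited tables was an alternative donor site of NDUFAF7, an assembly factor of complex I, with a difference of 0.207 under total knockdown at 24 hr (adjusted p = 0.0226, where 0.0589% of events passed).

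Skipping was also counted in the other lines. The ATP5F1C exon was skipped in 24 of 1738 reads in wild-type HUES66 (1.38%, Wilson interval 0.930% to 2.05%), in 21 of 298 in A375 total RNA (7.05%, 4.66% to 10.5%) and in 119 of 694 in HEK293 (17.1%, 14.5% to 20.1%). The intervals cover counting error in single libraries. The treated HUES66 libraries ran from 0.295% to 5.86%, so that HEK293 lay above all of them, while the highest lay inside the interval of A375. In A375 the nuclear (7.80%) and cytoplasmic (7.51%) libraries had nearly the same share as total RNA. The muscle markers summed to 2.38 CPM in A375 and 2.08 in HEK293, with MYH7 and MYL2 at 0 in both.

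**Figure D4:**
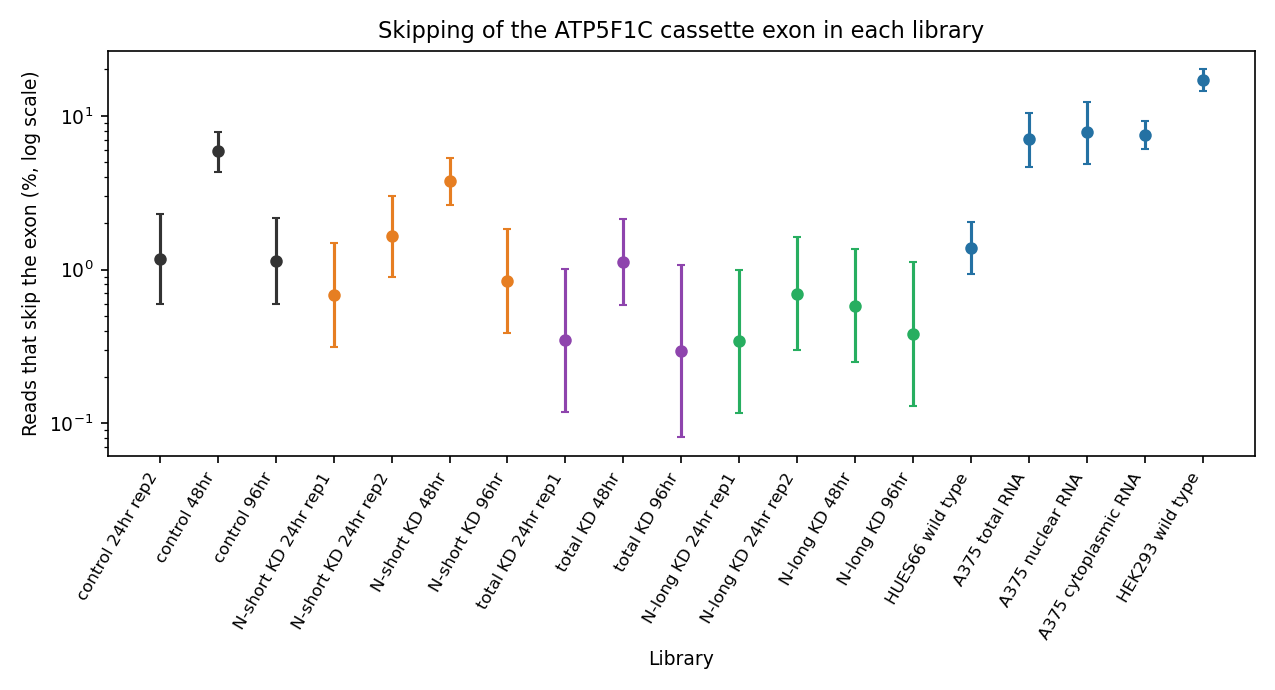
Share of reads that skip the ATP5F1C exon in each of the 19 libraries (log axis, with 95% Wilson intervals), with controls in black, N-short knockdown in orange, total knockdown in purple, N-long knockdown in green and the other libraries in blue. The 48 hr control at 5.86% and 48 hr N-short library at 3.74% stand above the other treated libraries, and HEK293 at 17.1% is the highest of all.

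With the filter at 2% to 98%, 36 cassette exons in 23 members were tested and edgeR called none in any knockdown contrast, where 1.28% of 6873 exons were called in total, 0.0145% in N-short and 0.466% in N-long knockdown, 0.349% between N-long and N-short and 0.495% between total and N-long. At an unadjusted p under 0.05 there were 1, 2, 2, 1 and 1 member exons in that order, and limma called none. These counts do not show that the exons were alike between groups. The smallest p under total knockdown was that of a 102-nt coding exon of SDHC, the membrane anchor of complex II, with a log2 odds difference of 1.81 (edgeR adjusted p = 0.173). It was included in 95.8%, 95.1% and 95.5% of control reads and in 98.6%, 99% and 97.9% of total knockdown reads.

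No member exon differed by 20 percentage points between lines, where 2.95% of all cassette exons did in HEK293 against wild-type HUES66, 3.09% in A375 against wild-type HUES66 and 2.48% in A375 against HEK293. Among 144 member exons compared between HEK293 and wild-type HUES66, 10 differed by at least 5 points, where 21.3% of 12994 cassette exons did, and the ATP5F1C exon was the largest at -15.8. It was followed, chosen here by the size of the difference, by an exon of NDUFAF1 included in 22.2% of reads in HEK293 and 9.33% in HUES66, and by 1 of ATP5MPL at 13.1% and 0.882%. A375 and wild-type HUES66 differed by at least 5 points in 4 of 144 member exons (19.4% of all cassette exons), and A375 and HEK293 in 9 of 142 (20.9% of all).

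Between 48 and 96 hr of doxycycline, 53 of the 90 members changed, 31 upward and 22 downward, and 60.1% of all genes did (edgeR, adjusted p under 0.05), 30.4% upward and 29.7% downward. The members' share, 58.9%, was close to that background, and their median log2 fold change was 0.00. In 26 members all 4 libraries at 96 hr lay above all 4 at 48 hr, and in 19 all lay below, where 25.7% and 24.2% of all genes did so. Each time has 1 library of each group and no second set, so time and anything else the 4 libraries of a time share cannot be told apart. The stem cell markers summed to 2982 to 3119 CPM at 48 hr and 3569 to 4324 at 96 hr. The muscle markers, 3 of 6 of them at 1 CPM or more, summed to 41.8 to 44.8 and 13.2 to 17.3. The fibroblast markers, 2 of 6 of them at 1 CPM or more, summed to 505 to 546 and 345 to 416. The part of these markers in the changes was not tested.

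NDUFA9, an accessory subunit of complex I, rose most. Its normalised level was 64.7, 73.5, 68.5 and 67.5 CPM at 48 hr in control, total, N-short and N-long knockdown, and 114, 112, 112 and 106 at 96 hr, a log2 fold change of 0.70 (SE 0.045, edgeR adjusted p = 3.37e-15). The 24 hr libraries held 98.2 to 108 CPM in replicate 1 and 80.0 to 82.7 in replicate 2, so that sets of the same time differed by more than the libraries within either. NDUFAF8 rose by 0.58, from 4.01 to 5.26 CPM at 48 hr to 5.88 to 7.69 at 96 hr, and by 1.06 when only introns of the reference transcript were counted.

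UQCRQ, a ubiquinone-binding subunit of complex III, rose from 28.7 to 33.2 CPM at 48 hr to 42.2 to 44.7 at 96 hr, by 0.50 on the log2 scale. NDUFB10 rose by 0.49, UQCRFS1 by 0.48, NDUFAF6 by 0.47 and NDUFS3, a core subunit of complex I, by 0.41. ATP5PB, a stalk subunit of complex V, rose by 0.46, from 159 to 164 CPM at 48 hr to 216 to 225 at 96 hr, and at 24 hr it stood at 204 to 219. So in ATP5PB the 48 hr libraries, and not the 96 hr libraries, were set apart from the rest. The adjusted p of these genes and of NDUFAF8 ran up to 0.000497.

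Downward, ATP5S, named after a coupling factor of complex V, moved by -0.41 (SE 0.12, edgeR adjusted p = 0.00483), from 7.38 to 10.5 CPM at 48 hr to 6.49 to 7.30 at 96 hr, and NDUFA7 by -0.41, from 30.3 to 35.9 CPM to 22.4 to 27.6. With introns of 1 gene name only, NDUFA7 had a log2 fold change of -0.65 and did not pass (adjusted p = 0.182). In both genes the libraries of the 2 times did not overlap. The direction varied within complexes. Of 45 genes of complex I, 19 rose and 11 fell, of 9 of complex III 3 rose and 2 fell, of 13 tested in complex IV 2 rose and 4 fell, of 19 of complex V 7 rose and 4 fell, and of 4 in complex II 1, SDHA, fell (by 0.26).

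Within F1, ATP5F1B rose by 0.22 and ATP5F1C by 0.08, and ATP5F1A fell by 0.12. Among the c subunit genes ATP5MC1 (0.28) and ATP5MC3 (0.22) rose and ATP5MC2 fell by 0.16. COX8A rose by 0.21 and COX7A2 fell by 0.13, while COX4I1 (-0.03), COX6A1 (-0.12), COX6B1 (-0.03), COX7B (0.00) and NDUFA4 (-0.02) did not pass. In complex I, NDUFS1 rose by 0.10 and NDUFV1 fell by 0.16. In the neighbouring lists, 43 of 77 mitochondrial ribosomal protein genes rose and 3 fell, 12 of 18 genes of mitochondrial DNA expression rose and 2 fell, with TFAM, its main packaging and transcription factor, up by 0.45, and 7 of 18 genes of the citric acid cycle rose and 6 fell. Without TMM factors the median of all genes moved by about -0.07, and the members split into 20 upward and 30 downward calls.

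**Figure D5:**
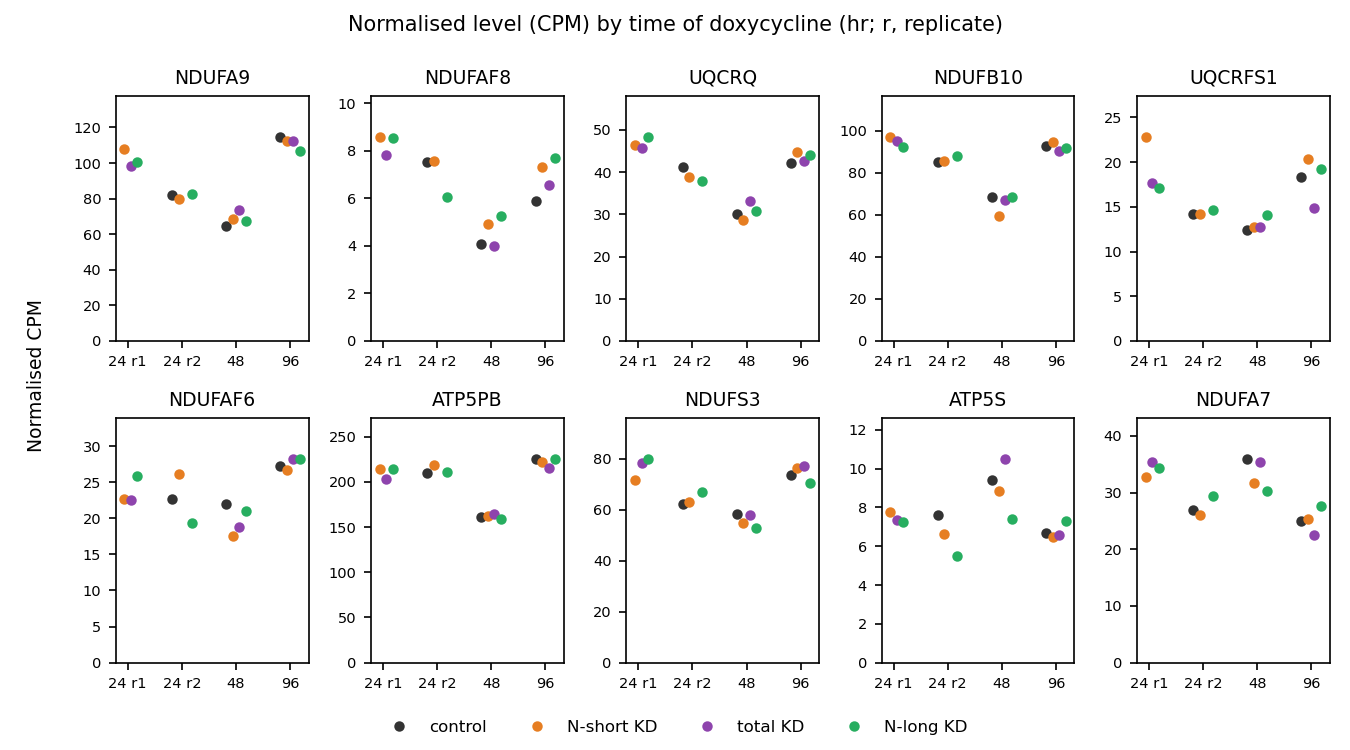
Normalised level in CPM (axes from 0) of the 10 members with the largest called changes between 48 and 96 hr, in each of the 14 treated libraries, by time and, at 24 hr, replicate (r1, r2), with knockdown by colour. The 4 libraries of a time lie close together for NDUFA9, UQCRQ, NDUFB10 and ATP5PB, all of them lowest at 48 hr.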

How the data were processed

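Junction read counts were deposited per library by the authors. Per the submitters' processing notes, STAR 2.7.1, SAMtools 1.9 and hg38 were used; the settings of the junction extraction were not given in the sources used here. All deposited junction reads were summed over GENCODE 29 introns by gene. An intron shared with a readthrough transcript was given to the other gene, a rule set after the files were seen, and introns of 1 gene name only were run as an alternative. The authors also deposited rMATS tables with p-values and differences in inclusion level per event, in 9 comparisons; of these, only the differences, p-values and adjusted p-values were used, and 69 per-library columns were not used.

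The 14 treated libraries were fitted together in edgeR 4.0.16 (R 4.3.3) with TMM factors, filterByExpr, terms for library set (time point and 24 hr replicate) and knockdown, quasi-likelihood F-tests and Benjamini-Hochberg adjustment over all genes or exons. The library-set term is the replicate block; the labels place the 24 hr replicates in different library series. Cassette exons needed a mean of 20 reads per library and 2% to 98% pooled inclusion. DESeq2 1.42.0 and limma 3.58.1 were alternatives. The tests were also run on simulated data, whose outcome is not reported here, so no power is claimed for them. Single libraries were compared as ratios of CPM with a pseudocount of 0.5 reads, for genes with at least 20 reads in both libraries together. Exact 95% intervals came from the binomial split of the reads, and shares carry Wilson intervals. PCR reads without molecular identifiers are not independent molecules, so intervals cover counting error only.

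Named members were at most 10 past the threshold per contrast by size of change, the 3 of smallest p where fewer than 3 passed, the 5 lowest and highest ratios with at least 100 reads, and fixed isoform pairs and core subunits. Members, lists, motifs and this rule were chosen with earlier results of these data known. The wild-type HUES66 library shares a name element with the controls, but its labels give neither a treatment nor a time point; it was used in the fits as an alternative only. Values of 1 gene the rule names are not reported here.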

Additional observations from a re-analysis of the deposited data

Results flagged for a closer look

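Among 54 named members in the N-short and N-long knockdown groups of 4 libraries, 107 sets of 4 values were examined for 1 library far from the other 3, and 7 held one; chance alone gives about 1 in 20. ATP5PB stood at 161.8 normalised CPM in the 48 hr N-short library against 214.3 to 221.5 in the other 3, NDUFB3 at 22.67 against 32.53 to 32.98, and NDUFC2 at 63.63 against 73.39 to 74.84, all lowest in that library. COX7A2 was highest in the 24 hr replicate 2 N-short library, at 150.1 against 137.1 to 137.7, and CYC1 in the 24 hr replicate 1 N-short library, at 95.22 against 79.17 to 80.32. In N-long knockdown, ATP5F1A was highest at 48 hr, at 966.4 against 857.9 to 871.7, and ATP5S lowest in 24 hr replicate 2, at 5.481 against 7.26 to 7.384. These libraries differ in time point or replicate, as the library-set term allows for.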

How the results depend on the processing

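The call of COX5B made the count of members under total knockdown 1; it was 0 with DESeq2, with no replicate block (time in place of library set) and with the wild-type library among the controls, and 0 to 1 in the fits that left out 1 library. Over all genes the count under total knockdown was 320, and 59 with no replicate block, 553 with the wild-type library and 168 to 358 without 1 library. For total against N-long knockdown it was 287, and 42 with no replicate block, 161 without the 48 hr total knockdown library, 165 without the 48 hr N-long library and 173 without the 24 hr replicate 1 N-long library. The 0 counts of the other 4 knockdown contrasts stayed at 0 in every setting run, no replicate block and leave-one-out fits included. The 53 members called between 96 and 48 hr became 49 to 53 in the other settings, 46 to 51 without 1 library. Member exons called were 0 in all settings with the 2% to 98% filter, and with the 1% to 99% filter, added after the data were seen, 1 in total, N-long and N-long against N-short contrasts, alone and with no replicate block, and 0 to 1 without 1 library. The ATP5F1C difference under N-short knockdown reversed to -0.23 without the 48 hr control. With A375 total RNA in place of the cytoplasmic library, the median log2 ratio moved to -0.41 and the count of 2-fold lower members to 1. The log2 ratio of COX6A1 changed sign to -0.017, with no direction beyond counting error. The member median between A375 and HUES66 reversed to 0.044 against 3 summed control libraries, and TMM factors reversed those of HEK293 against HUES66 to -0.10 and of A375 against HEK293 to 0.058. Against the 3 summed controls, 7 members in place of 4 were past 2-fold in HEK293. Counting intervals limit ratios of members under about 100 reads, and a single library per line or fraction limits all ratios.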
